A study of Mus musculus with 16 samples.

Results

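The genes described here are the developmental homeobox, Pax, Gata and T-box transcription factor genes of the mouse, as read in striatal tissue of a Huntington's disease model with and without reduced DREAM. A gene belonged to the set when at least 1 probe set of the array carried its symbol alone and the symbol was Hoxa to Hoxd, Pax, Lhx, Nkx, Irx, Gata or Tbx followed by a digit, or that of a sine oculis homeobox gene other than Six3. This gave 95 of the 18193 genes measured. They were 10 Hoxa, 10 Hoxb, 7 Hoxc, 9 Hoxd, 9 Pax, 9 Lhx, 12 Nkx, 6 Irx, 7 Gata, 12 Tbx and 4 sine oculis genes. Of the 95, 89 were factor genes and 6 were transcripts named for the strand opposite a factor gene (Hoxa11os, Hoxb5os, Hoxd3os1, Gata5os, Lhx1os and Pax6os1). Where several probe sets read a gene, the one brightest on average over the 16 arrays was used.

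Total RNA of whole striatum was hybridised to Affymetrix Mouse Genome arrays in 4 genotypes of 4 arrays each, all on the B6xCBA strain. The genotypes were R6/2 x DREAM +/-, R6/2, DREAM +/- and wild type. R6/2 mice carry a transgene with the first exon of human huntingtin and an expanded CAG repeat, which makes them a model of Huntington's disease. DREAM, encoded by Kcnip3, is a calcium-binding protein that represses transcription from DNA and also binds potassium channels, and DREAM +/- is the labels' name for mice with 1 knockout allele. The double-genotype mice came from a cross of DREAM knockout with R6/2 animals. The labels used here do not give age, sex or whether an array held 1 animal or a pool, so p-values measure the spread between these samples. The labels name striatal neurons as the cell type, whereas their protocol describes whole striatum, which also holds glia, vessels and interneurons. Markers of striatal projection neurons were bright, with Drd1 at a mean of 11.33 and Penk at 12.79 over all arrays. Of 8 such markers measured, 7 fell in R6/2 against wild type and 7 in R6/2 x DREAM +/- against DREAM +/- (limma), with median changes of -0.76 and -0.70. Their list mean ran from 10.93 to 11.29 in R6/2 x DREAM +/-, from 11.06 to 11.25 in R6/2, from 11.59 to 11.71 in DREAM +/- and from 11.77 to 11.89 in wild type, so the R6/2 groups did not overlap those they were set against. The part of this shift in the R6/2 results below was not tested. The list mean of 6 choroid plexus markers averaged 9.504 in R6/2 x DREAM +/-, 9.22 in DREAM +/-, 8.556 in R6/2 and 8.799 in wild type. It ran from 7.415 on an R6/2 array to 10.137 on a DREAM +/- array. Of 6 thalamus markers, 2 fell in R6/2 x DREAM +/- against DREAM +/- and 0 in R6/2 against wild type (limma). The part of choroid plexus and thalamus tissue in the results below was not tested.

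Homeobox factors bind DNA through a homeodomain and set regional and cell identity in the embryo. The clustered Hox genes pattern the hindbrain, the spinal cord and the body axis and are normally kept silent in the forebrain by Polycomb complexes. In the ventral forebrain, Nkx2-1 acts upstream of Lhx6 and Lhx8 in the neurons that become striatal interneurons, with Lhx8 in the cholinergic ones, while Nkx2-2 marks cells of the oligodendrocyte lineage and Lhx2 patterns the cortex.

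The values are log2 intensities, so a difference of 1 is a 2-fold ratio. A gene was called dim when its mean lay under 5.944, a value that 40% of probe sets did not reach. By this rule 67 of the 95 genes were dim, or 70.5%, against 28.5% of all genes. The 28 brighter ones were 7 Nkx, 4 Lhx, 4 Hoxa, 3 Hoxb, 3 Hoxc, 3 Pax and 1 each of the Gata, Irx, Tbx and sine oculis genes, and all 9 Hoxd genes were dim. Dim is thus a rank among probe sets, since background was not measured, and does not say that a transcript was absent. Nor does a mean over the threshold say that a transcript was present.

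The targeted gene was read first. Kcnip3 averaged 7.56 in R6/2 x DREAM +/-, 9.11 in R6/2, 7.77 in DREAM +/- and 9.67 in wild type on its brighter probe set. It fell in R6/2 x DREAM +/- against R6/2 (change -1.55, limma adjusted p = 8.64e-08) and in DREAM +/- against wild type (change -1.90, limma adjusted p = 3.67e-09). Its second probe set averaged 5.40 in R6/2 x DREAM +/-, 7.99 in R6/2, 5.58 in DREAM +/- and 8.53 in wild type, with changes of -2.59 and -2.95 in the same comparisons (limma adjusted p = 2.63e-09 and 3.74e-10). All these falls were larger than 1 on the log2 scale, a 2-fold difference, in mice labelled as keeping 1 intact allele. In R6/2, set against wild type, both probe sets were lower too, with a change of -0.56 on the brighter one (limma adjusted p = 0.000775) and of -0.54 on the other (limma adjusted p = 0.00688). The labels used here do not give the deleted stretch, so whether either probe set lies in it was not tested. Xist stood at 6.49 in R6/2 replicate 1 and between 11.04 and 12.16 on the other 15 arrays. The Y-linked Eif2s3y ran from 6.23 to 7.42 in R6/2 x DREAM +/- and from 7.51 to 8.05 in DREAM +/-. It ran from 6.57 to 8.91 in R6/2, with 8.91 in replicate 1, and from 6.16 to 7.80 in wild type. Sex-linked signal thus differed between groups, and its part in the results was not tested. High Xist and Y-linked signal also stood together on some arrays. DREAM +/- replicate 3 had Xist at 11.04, Eif2s3y at 8.05 and the Y-linked Kdm5d at 6.72. R6/2 x DREAM +/- replicate 3 had 12.16, 6.23 and 4.94, and R6/2 replicate 1 had 6.49, 8.91 and 7.54. Whether an array held RNA of both sexes was not tested. Because of the low Xist value of R6/2 replicate 1, results were also computed without that array. R6/2 x DREAM +/- replicate 3, an array that earlier results of these data had set apart, was left out with it.

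The changes turned on few genes, and 3 of them are shown by the DNA at a RefSeq start. DREAM represses by binding a downstream regulatory element with the core GTCA, so its matches are marked. Of the 3, only Nkx2-2 was called for reduced DREAM, where it was lower, and Lhx2 and Lhx8 were called for R6/2 only. Irx5 had no matched window and is not shown. RefSeq promoter windows (300 bases, mostly before and partly after a gene's start, build GRCm38.p6) were matched for 66 of the 95 genes, with 78 windows. In the sequences, given 5′ to 3′ on the gene's strand, capitals mark GTCA or its reverse complement TGAC. The Nkx2-2 window is chr2:147186353-147186652 on the minus strand, the Lhx2 window chr2:38339031-38339330 on the plus strand and the Lhx8 window chr3:154330511-154330810 on the minus strand. RefSeq spans Nkx2-2 by several transcripts, and the window given lies at a start inside that span, not at its outer end.
Nkx2-2: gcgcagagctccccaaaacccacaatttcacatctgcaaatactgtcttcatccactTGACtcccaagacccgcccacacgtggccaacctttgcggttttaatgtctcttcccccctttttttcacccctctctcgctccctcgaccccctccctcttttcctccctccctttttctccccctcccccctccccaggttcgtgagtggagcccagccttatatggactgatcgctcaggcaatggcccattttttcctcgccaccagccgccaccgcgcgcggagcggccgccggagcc
Lhx2: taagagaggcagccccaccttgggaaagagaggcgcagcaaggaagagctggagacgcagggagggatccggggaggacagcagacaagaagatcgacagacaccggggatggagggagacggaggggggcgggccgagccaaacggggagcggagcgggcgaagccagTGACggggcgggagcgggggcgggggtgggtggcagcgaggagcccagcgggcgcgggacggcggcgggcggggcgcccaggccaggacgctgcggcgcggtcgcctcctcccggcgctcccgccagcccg
Lhx8: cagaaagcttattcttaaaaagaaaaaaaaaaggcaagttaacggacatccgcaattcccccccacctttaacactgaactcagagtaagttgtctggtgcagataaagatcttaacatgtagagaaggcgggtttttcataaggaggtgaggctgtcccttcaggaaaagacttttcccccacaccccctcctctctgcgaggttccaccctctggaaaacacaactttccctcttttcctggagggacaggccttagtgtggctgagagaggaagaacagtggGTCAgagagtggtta
Each of the 3 windows held 1 such match, and a second Lhx2 window, chr2:38351058-38351357, held 0. The motif is short: it stood on either strand in 89.7% of the 78 windows and in 85.2% of all 32851 RefSeq windows of the same length, counting those inside the longer palindrome TGACGTCA (1.28% and 1.79%). The windows of the gene set held a median of 16.5 CG pairs, against 7 in all windows, with 17 in Nkx2-2, 34 in Lhx2 and 4 in Lhx8. A match is a description of letters and not a binding site.

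R6/2 was set against wild type to read what the huntingtin transgene changes, and R6/2 x DREAM +/- against R6/2 to read what reduced DREAM changes beside it. In R6/2 against wild type, 9 of the 95 genes passed the test (limma, adjusted p under 0.05 over all 18193 genes), 8 higher and 1 lower. The share, 9 of 95, stood beside 18.2% of all genes called in this comparison (9.8% higher and 8.37% lower). In bulk tissue, fewer cells of a type and less RNA per cell cannot be told apart. The 8 that rose were Nkx2-2, Irx5, Hoxd8, Hoxc10, Hoxb7, Lhx3, Six4 and Tbx1, and the 1 that fell was Lhx2. Among the 67 dim genes 6 rose and 0 fell, beside 6.0% of all dim genes called (4.63% higher and 1.37% lower). The median change over the 95 was 0.05, against 0.03 over all genes. Without R6/2 replicate 1 and R6/2 x DREAM +/- replicate 3 together, 6 of the 95 were called, beside 17.5% of all genes. Leaving out single arrays gave between 6 and 16 of the 95, with 16 without R6/2 replicate 2, beside 15.4% of all genes.

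In R6/2 x DREAM +/- against DREAM +/-, 4 of the 95 genes passed, 2 higher (Nkx2-2 and Irx5) and 2 lower (Lhx2 and Lhx8), beside 9.89% of all genes called (4.5% higher and 5.4% lower). The median change was 0.02 against 0.015 over all genes, and 1 of the 67 dim genes (Irx5) passed, beside 1.68% of dim genes. Nkx2-2, Irx5 and Lhx2 were thus called in both R6/2 comparisons. The effect of R6/2 averaged over both DREAM states was called for 10 genes, 8 higher and 2 lower, beside 25.8% of all genes (14.6% higher and 11.2% lower). Those 10 were Nkx2-2, Irx5, Hoxd8, Hoxb7, Hoxa5, Lhx3, Pax9 and Tbx3, higher, and Lhx2 and Lhx8, lower.

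**Figure D1:**
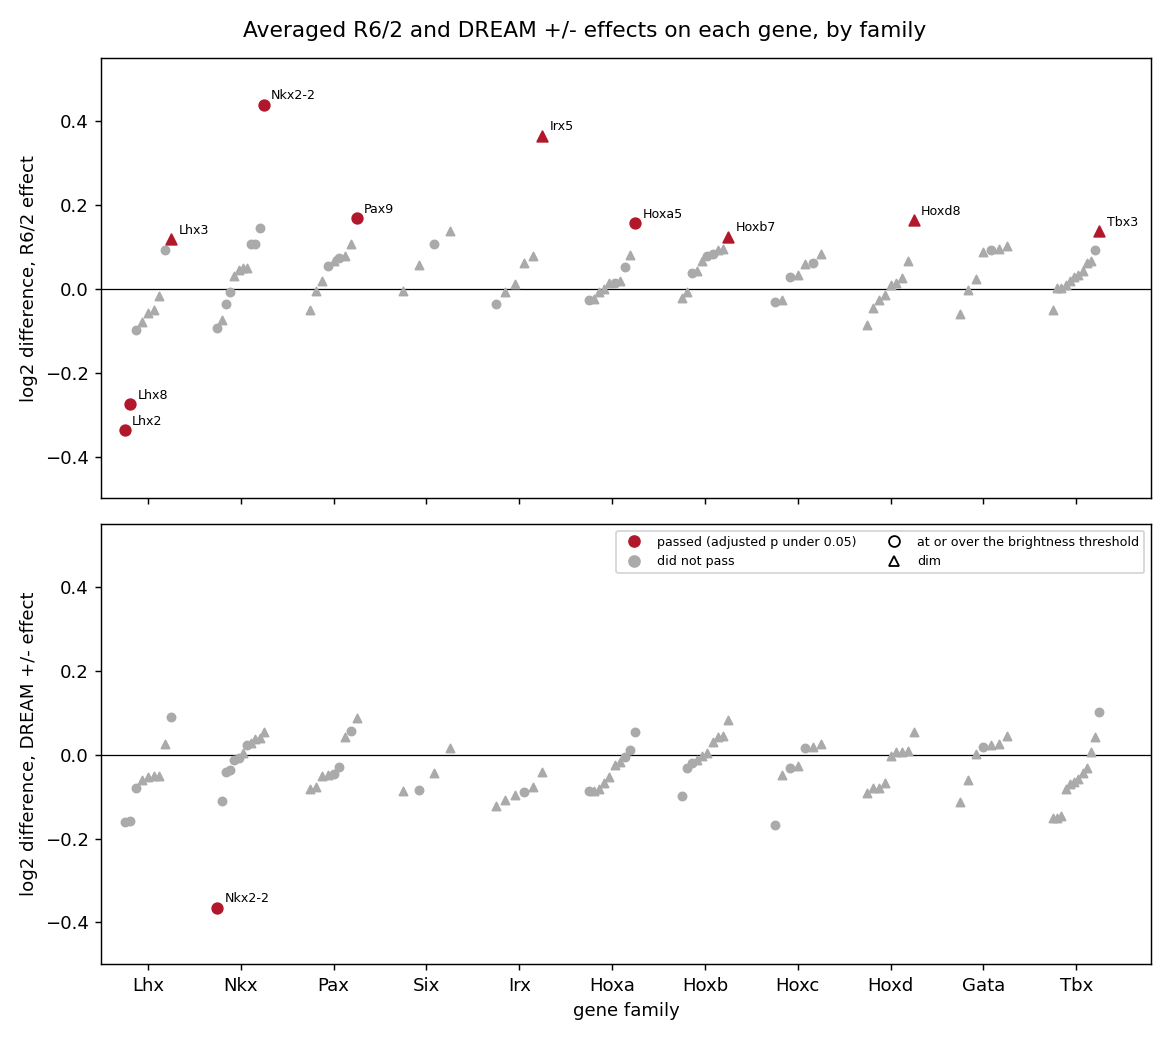
Averaged effects of R6/2 and of DREAM +/- (log2, each point 1 gene) by family for the 95 genes; the 10 genes called for R6/2 include Nkx2-2 at 0.44 and Lhx2 at -0.34, and Nkx2-2 at -0.36 is the 1 gene called for DREAM +/-.

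Among the Nkx genes, Nkx2-2 carried the widest changes. It encodes a homeodomain factor of oligodendrocyte precursors and of some ventral neurons (gene at chr2:147176485-147195434, GRCm38). Its values on the 4 arrays of each group were 7.72, 7.95, 7.93 and 7.64 in R6/2 x DREAM +/-, 8.05, 8.14, 8.43 and 8.44 in R6/2, 7.42, 7.45, 7.50 and 7.47 in DREAM +/-, and 7.52, 7.84, 7.65 and 7.93 in wild type. Every R6/2 array lay above every wild type and every R6/2 x DREAM +/- array, and the R6/2 x DREAM +/- arrays lay above the DREAM +/- arrays. It rose by 0.53 ± 0.10 in R6/2 against wild type (SE, limma adjusted p = 0.000951) and by 0.35 in R6/2 x DREAM +/- against DREAM +/- (limma adjusted p = 0.0291). It fell in R6/2 x DREAM +/- against R6/2 (change -0.46, limma adjusted p = 0.00895), where 3 of the 95 genes were called, all lower, beside 8.87% of all genes (3.36% higher and 5.51% lower). In DREAM +/- against wild type the change was -0.28 (limma adjusted p = 0.175, unadjusted 95% interval -0.48 to -0.07), and the interaction was -0.18 (limma adjusted p = 0.861). The averaged DREAM +/- effect on Nkx2-2, -0.36 (limma adjusted p = 0.00197), was the 1 call among the 95 genes in that contrast, beside 15.0% of all genes (5.12% higher and 9.83% lower). The rise in R6/2 x DREAM +/- was not called without R6/2 x DREAM +/- replicate 2 or 3 or without any 1 of the 4 DREAM +/- arrays (limma adjusted p up to 0.0913), nor without R6/2 replicate 1 and R6/2 x DREAM +/- replicate 3 together (limma adjusted p = 0.0525). Of 4 oligodendrocyte markers measured, 1 (Mal) fell in R6/2 and in R6/2 x DREAM +/-, and the list mean ran from 11.86 to 11.98 in R6/2 x DREAM +/-, from 11.86 to 11.99 in R6/2, from 12.04 to 12.13 in DREAM +/- and from 11.95 to 12.23 in wild type. The part of these markers in the Nkx2-2 result was not tested.

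The other 11 Nkx genes made no call in any of the 7 contrasts. Nkx2-1, the ventral forebrain factor upstream of Lhx6, was dim and changed by -0.01 in R6/2 against wild type. Nkx2-9 changed by 0.26 in R6/2 against wild type (limma adjusted p = 0.0617) and Nkx6-2, a factor of oligodendrocytes, by -0.09 in the averaged R6/2 effect (limma adjusted p = 0.314). The averaged R6/2 effects of Nkx2-3, Nkx2-4, Nkx2-5 and Nkx2-6, all over the brightness threshold, were 0.11, -0.01, -0.04 and 0.11, and those of the dim Nkx6-1 and Nkx6-3 were -0.08 and 0.05.

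The Lhx genes encode LIM-homeodomain factors, which act with the cofactor Ldb1. Lhx2, which keeps cortical progenitors in their fate (gene at chr2:38339271-38369737, GRCm38), gave 7.85, 7.96, 8.16 and 7.89 in R6/2 x DREAM +/-, 7.84, 7.88, 7.91 and 7.78 in R6/2, 8.41, 8.18, 8.21 and 8.32 in DREAM +/-, and 7.98, 8.38, 8.28 and 8.21 in wild type. The arrays with R6/2 lay below those of their comparison group in both pairs. Lhx2 fell in R6/2 against wild type (change -0.36 ± 0.08 SE, limma adjusted p = 0.00456) and in R6/2 x DREAM +/- against DREAM +/- (change -0.32 ± 0.08 SE, limma adjusted p = 0.0182), and was not called between R6/2 x DREAM +/- and R6/2 (change 0.11, limma adjusted p = 0.429). The second fall was not called without R6/2 x DREAM +/- replicate 1 or 4 or without DREAM +/- replicate 1 (limma adjusted p up to 0.0714). Of 7 cortical projection neuron markers measured, 5 fell in R6/2 against wild type and 0 in R6/2 x DREAM +/- against DREAM +/-. The mean of those markers ran from 8.08 to 8.38 in R6/2 x DREAM +/-, from 7.46 to 7.87 in R6/2, from 8.20 to 8.37 in DREAM +/- and from 8.10 to 8.35 in wild type. The R6/2 and wild type arrays did not overlap in that mean, and those of R6/2 x DREAM +/- and DREAM +/- did. The part of these markers in the Lhx2 result was not tested.

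Lhx8, a factor needed for cholinergic neurons of the basal forebrain (gene at chr3:154306288-154330560, GRCm38), gave 8.20, 8.39, 8.25 and 8.03 in R6/2 x DREAM +/-, 8.62, 8.30, 8.37 and 8.42 in R6/2, 8.53, 8.57, 8.52 and 8.56 in DREAM +/-, and 8.74, 8.47, 8.75 and 8.64 in wild type. The R6/2 x DREAM +/- and DREAM +/- arrays did not overlap, whereas R6/2 and wild type did. Lhx8 fell in R6/2 x DREAM +/- against DREAM +/- (change -0.33 ± 0.08 SE, limma adjusted p = 0.0124), and changed by -0.22 in R6/2 against wild type (limma adjusted p = 0.0611). Averaged over DREAM states it fell (change -0.28, limma adjusted p = 0.00133), a call that held in every alternative run. Of 8 striatal interneuron markers, 6 fell in R6/2 x DREAM +/- against DREAM +/- and 5 in R6/2 against wild type, and their list mean ran from 7.88 to 8.05 in R6/2 x DREAM +/-, from 8.01 to 8.21 in R6/2, from 8.31 to 8.35 in DREAM +/- and from 8.33 to 8.40 in wild type. Of the cholinergic genes on that list, the vesicular acetylcholine transporter gene Slc18a3 changed by -0.41 in R6/2 x DREAM +/- against DREAM +/- and by -0.35 in R6/2 against wild type. The choline transporter gene Slc5a7 changed by -0.62 and -0.40 in the same comparisons, and all 4 changes passed the test, while Chat, which encodes the acetylcholine-making enzyme, was dim at 5.05. The part of these markers in the Lhx8 result was not tested. Lhx6, which marks somatostatin and parvalbumin interneurons, averaged 7.44 in R6/2 x DREAM +/-, 7.63 in R6/2, 7.57 in DREAM +/- and 7.70 in wild type, and made no call (averaged R6/2 effect -0.10, limma adjusted p = 0.211).

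Lhx3, a factor of motor neurons and the pituitary, was dim, at 5.65, 5.70, 5.70 and 5.71 in R6/2 x DREAM +/-, 5.96, 5.78, 5.73 and 5.82 in R6/2, 5.64, 5.58, 5.65 and 5.70 in DREAM +/-, and 5.70, 5.48, 5.65 and 5.70 in wild type. The R6/2 arrays lay above the wild type arrays. Lhx3 rose in R6/2 against wild type (0.19, limma adjusted p = 0.0321), but not without R6/2 replicate 1 or 4 or wild type replicate 2 or 3 (limma adjusted p up to 0.115), and its second probe set changed by -0.14. Its averaged R6/2 effect was 0.12 (limma adjusted p = 0.0442) and held without R6/2 x DREAM +/- replicate 1, DREAM +/- replicate 4, R6/2 replicate 2 or 3 or wild type replicate 1 or 4, but not without any 1 of the other 10 arrays (limma adjusted p up to 0.0978). Lhx4 changed by 0.15 in R6/2 against wild type (limma adjusted p = 0.0604), and the dim Lhx9 and Lhx1os by -0.08 and -0.02 in the averaged R6/2 effect.

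**Figure D2:**
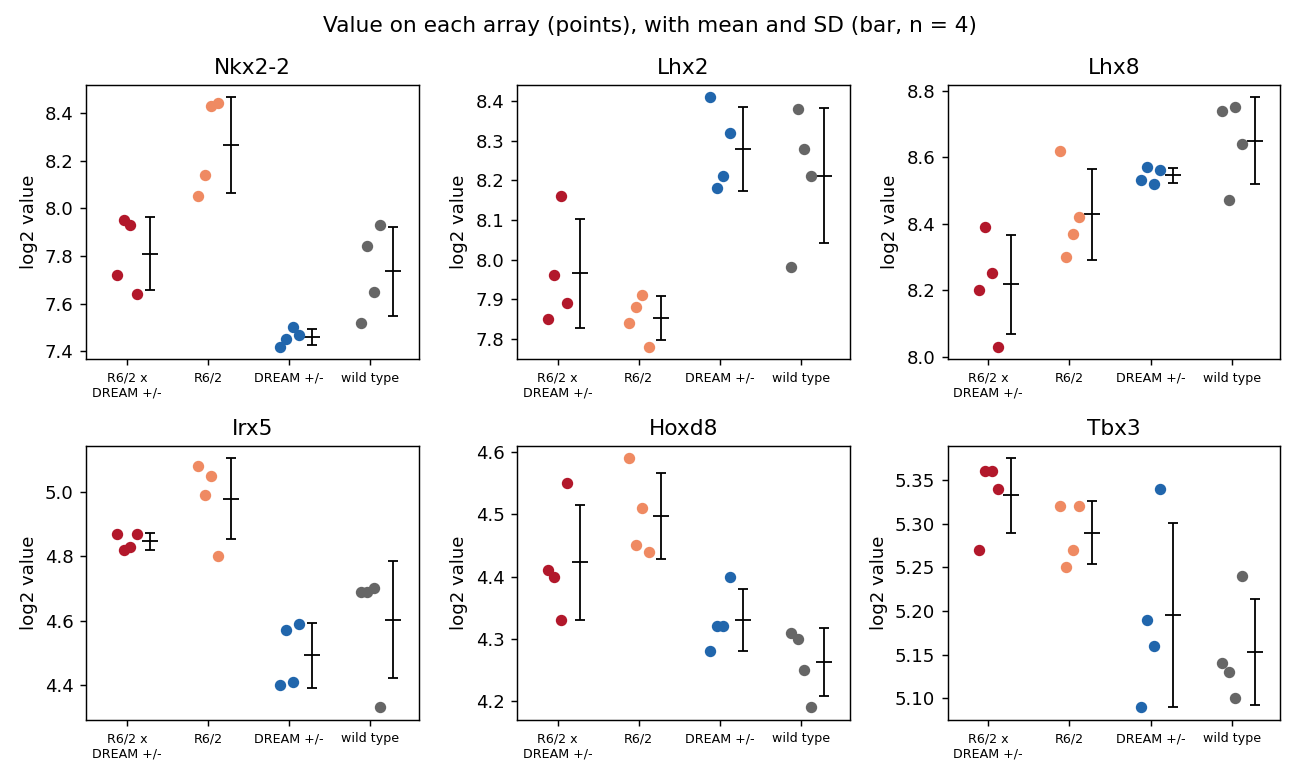
Log2 value of Nkx2-2, Lhx2, Lhx8, Irx5, Hoxd8 and Tbx3 on each array (points) by genotype, with the group mean and SD (bars, n = 4). The R6/2 arrays stand above the wild type arrays for Nkx2-2 (8.05 to 8.44 against 7.52 to 7.93) and below them for Lhx2 (7.78 to 7.91 against 7.98 to 8.38).

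The Irx genes encode the Iroquois homeodomain factors, which pattern the neural tube and the heart. Irx5 (gene at chr8:92357796-92361456, GRCm38) was dim and gave 4.87, 4.82, 4.83 and 4.87 in R6/2 x DREAM +/-, 5.08, 4.99, 5.05 and 4.80 in R6/2, 4.40, 4.57, 4.41 and 4.59 in DREAM +/-, and 4.69, 4.69, 4.70 and 4.33 in wild type. The arrays with R6/2 lay above their comparison arrays in both pairs, within the range of dim values. Irx5 rose by 0.38 ± 0.08 in R6/2 against wild type (SE, limma adjusted p = 0.00287) and by 0.36 ± 0.08 in R6/2 x DREAM +/- against DREAM +/- (SE, limma adjusted p = 0.00764). Without wild type replicate 4 the first difference was 0.29 and the call held. It changed by -0.13 in R6/2 x DREAM +/- against R6/2 (limma adjusted p = 0.332) and by -0.11 in DREAM +/- against wild type (limma adjusted p = 0.566).

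Irx6 was dim too, with 4.79, 4.69, 4.77 and 4.67 in R6/2 x DREAM +/- and 4.99, 4.92, 4.94 and 4.97 in R6/2, and the 2 groups did not overlap. It fell in R6/2 x DREAM +/- against R6/2 (change -0.22, limma adjusted p = 0.0286), but not without R6/2 x DREAM +/- replicate 2 or 4 or R6/2 replicate 1, 3 or 4 (limma adjusted p up to 0.0788). In that comparison 0 of the 6 Irx genes had a positive difference, with a median of -0.11, and 1 passed, where 38.1% of all genes and 33% of dim ones had a positive difference. The only Irx gene over the brightness threshold, Irx1, changed by -0.01 in R6/2 against wild type and by -0.11 in R6/2 x DREAM +/- against R6/2. The dim Irx3 and Irx4 changed by 0.06 and 0.08 in the averaged R6/2 effect.

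**Figure D3:**
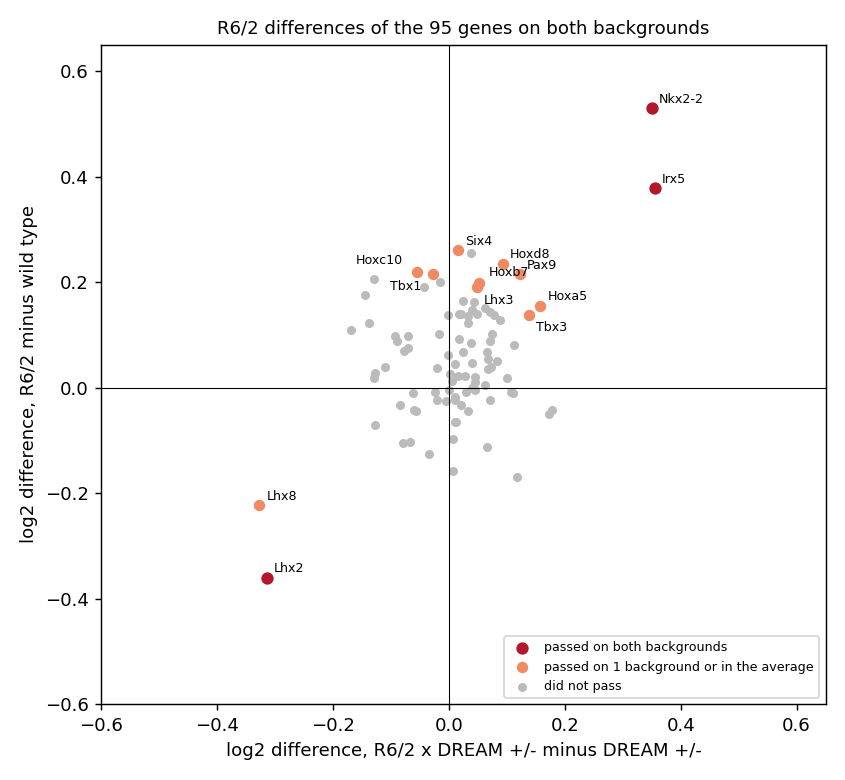
Log2 difference of each of the 95 genes in R6/2 x DREAM +/- minus DREAM +/- (horizontal axis) and in R6/2 minus wild type (vertical axis), 1 point per gene. Nkx2-2 (0.35 and 0.53), Irx5 (0.36 and 0.38) and Lhx2 (-0.32 and -0.36) passed the test in both pairs, and the other calls were made in 1 pair or in the average.

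The clustered Hox genes, which give positional identity behind the forebrain, numbered 36 with their opposite-strand transcripts. In R6/2 against wild type 3 of the 36 rose (Hoxd8, Hoxc10 and Hoxb7), 0 fell and 33 did not pass. Beside them, 9.8% of all genes were called higher and 8.37% lower, and 4.63% and 1.37% of all dim genes. The median change was 0.02, against 0.03 over all genes. In R6/2 x DREAM +/- against DREAM +/- and in DREAM +/- against wild type 0 of the 36 passed, beside 9.89% and 2.48% of all genes. In R6/2 x DREAM +/- against R6/2 1 fell (Hoxc6), beside 8.87% of all genes called. All 3 Hox genes that rose were dim, at group means that differed by 0.24 or less.

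Hoxd8 gave 4.41, 4.40, 4.33 and 4.55 in R6/2 x DREAM +/-, 4.59, 4.45, 4.51 and 4.44 in R6/2, 4.28, 4.32, 4.32 and 4.40 in DREAM +/-, and 4.31, 4.30, 4.25 and 4.19 in wild type. The R6/2 arrays lay above the wild type arrays, and the R6/2 x DREAM +/- arrays overlapped those of DREAM +/-. Hoxd8 rose in R6/2 against wild type (0.24 ± 0.06 SE, limma adjusted p = 0.00604) and in the averaged R6/2 effect (0.16, limma adjusted p = 0.00459). Its other probe set changed by -0.12 in R6/2 against wild type (limma adjusted p = 0.201), and with the median of both probe sets the gene was not called (limma adjusted p = 0.446).

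Hoxc10 gave 4.78, 4.88, 4.83 and 4.68 in R6/2, against 4.58, 4.52, 4.50 and 4.69 in wild type, and the ranges overlapped by 1 array on each side. It rose by 0.22 (limma adjusted p = 0.0167), but not without R6/2 replicate 2 or wild type replicate 3 (limma adjusted p up to 0.0558). Hoxb7 gave 4.49, 4.30, 4.25 and 4.51 in R6/2, against 4.16, 4.23, 4.22 and 4.15 in wild type, with no overlap. It rose by 0.20 (limma adjusted p = 0.0269), but not without R6/2 replicate 1 or 4 or wild type replicate 1 or 4 (limma adjusted p up to 0.0964). Its averaged R6/2 effect of 0.12 (limma adjusted p = 0.0354) held without R6/2 x DREAM +/- replicate 3, DREAM +/- replicate 1 or 4, R6/2 replicate 2 or 3 or wild type replicate 2 or 3, but not without any 1 of the other 9 arrays (limma adjusted p up to 0.0787).

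Hoxa5, a factor of hindbrain and lung development, was over the brightness threshold, with group means of 7.33 in R6/2 x DREAM +/-, 7.33 in R6/2, 7.17 in DREAM +/- and 7.18 in wild type. The averaged R6/2 effect was 0.16 (limma adjusted p = 0.0403) and held without R6/2 x DREAM +/- replicate 2, DREAM +/- replicate 4, R6/2 replicate 3 or wild type replicate 1 or 3, but not without any 1 of the other 11 arrays (limma adjusted p up to 0.0870). Its second probe set, dim at a mean of 4.37, changed by -0.01. The probe sets used for Hoxa5 and Hoxc6 are of the x_at type, which can also bind related sequences. Hoxc6 gave 5.90, 5.87, 6.06 and 6.44 in R6/2 x DREAM +/-, against 6.39, 6.29, 6.39 and 6.43 in R6/2, and 1 R6/2 x DREAM +/- array lay above all of R6/2. It fell in R6/2 x DREAM +/- against R6/2 (change -0.31, limma adjusted p = 0.047), but the call held without only 3 of the 16 arrays, each left out alone: R6/2 x DREAM +/- replicate 4 (limma adjusted p = 0.00121) and wild type replicates 3 and 4 (limma adjusted p = 0.0491 and 0.0405). Without each of the other 13 arrays it was not called (limma adjusted p up to 0.155), and the other 2 probe sets changed by -0.15 and 0.19. Among the brighter Hox genes that made no call, Hoxa7 changed by 0.18 and Hoxa9 by -0.06 in R6/2 against wild type (limma adjusted p = 0.257 and 0.618), and the opposite-strand transcript Hoxb5os by 0.20 (limma adjusted p = 0.123). The averaged R6/2 effects of Hoxa3, Hoxb3, Hoxb4, Hoxc4 and Hoxc9 lay between 0.03 (Hoxc9) and 0.08 (Hoxb3). Those of the dim Hoxa2, Hoxa11os, Hoxb2, Hoxb5, Hoxc5, Hoxc8, Hoxd11 and Hoxd12 lay between -0.08 (Hoxd12) and 0.10 (Hoxb5).

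The Pax genes encode paired-box factors. In R6/2 against wild type 0 of 9 passed, while 8 of the 9 differences were positive, with a median of 0.09, beside 59% positive over all genes and 62.9% over dim ones. Pax6, which patterns the dorsal forebrain and eye, gave 7.11, 7.25, 7.08 and 7.28 in R6/2 x DREAM +/-, 7.26, 7.21, 7.18 and 7.31 in R6/2, 7.21, 7.29, 7.16 and 7.23 in DREAM +/-, and 7.10, 7.07, 7.17 and 6.86 in wild type. R6/2 lay above wild type without overlap, at a difference of 0.19 that did not pass (limma adjusted p = 0.0531). Pax9, a factor of tooth, thymus and skeleton, gave 6.27, 6.23, 6.15 and 6.31 in R6/2 x DREAM +/-, 6.43, 6.09, 6.38 and 6.43 in R6/2, 5.96, 6.11, 6.12 and 6.28 in DREAM +/-, and 6.15, 6.11, 6.06 and 6.15 in wild type. The ranges overlapped in both pairs. Its averaged R6/2 effect was 0.17 (limma adjusted p = 0.0258), and was not called without R6/2 x DREAM +/- replicate 4, DREAM +/- replicate 1 or R6/2 replicate 1 or 4 (limma adjusted p up to 0.0615). Its other 2 probe sets were dim and changed by 0.00 and 0.02. Pax3, Pax4 and Pax6os1 changed by 0.11, 0.06 and 0.07 in the averaged R6/2 effect, with no call.

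Of the 4 sine oculis homeobox genes (Six2, Six4, Six5 and Six6), whose products act with Eya and Dach proteins, Six4 passed in 1 comparison. It gave 5.02, 4.84, 5.09 and 4.92 in R6/2, against 4.73, 4.68, 4.59 and 4.83 in wild type, with no overlap among dim values. Six4 rose by 0.26 (limma adjusted p = 0.0216), but not without R6/2 replicate 1 or 3 or wild type replicate 2 or 3 (limma adjusted p up to 0.0748). Counting the probe set used, 2 of its 4 had the same sign. The others changed by -0.0475 to 0.05 (smallest limma adjusted p = 0.709). Six5, the only one of the 4 over the brightness threshold, changed by 0.13 in R6/2 against wild type (limma adjusted p = 0.180). Six2 changed by 0.06 in the averaged R6/2 effect, and Six6 by -0.02 in R6/2 against wild type.

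The Gata genes encode zinc-finger factors of blood, heart and some midbrain and hindbrain neurons, and 0 of 7 passed in any of the 7 contrasts. Gata2 averaged 7.86 in R6/2 x DREAM +/-, 7.89 in R6/2, 7.81 in DREAM +/- and 7.75 in wild type. Its averaged R6/2 effect was 0.09 (limma adjusted p = 0.210). Gata1, the red blood cell factor, changed by 0.16 in R6/2 against wild type (limma adjusted p = 0.146), and the opposite-strand transcript Gata5os by -0.02.

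Among the 12 T-box genes, 10 had a positive difference in R6/2 against wild type, with a median of 0.05, and 1 passed, beside the same 59% of all genes and 62.9% of dim ones with a positive difference. Tbx1, a factor of pharyngeal and heart development, gave 6.51, 6.34, 6.59 and 6.64 in R6/2 x DREAM +/-, 6.53, 6.41, 6.49 and 6.73 in R6/2, 6.57, 6.58, 6.49 and 6.55 in DREAM +/-, and 6.21, 6.43, 6.34 and 6.32 in wild type. R6/2 overlapped wild type by 1 array, and all 4 DREAM +/- arrays lay above wild type. Tbx1 rose by 0.21 in R6/2 (limma adjusted p = 0.048) and held without R6/2 x DREAM +/- replicate 2, 3 or 4, R6/2 replicate 2 or wild type replicate 2, but not without any 1 of the other 11 arrays (limma adjusted p up to 0.169). Its difference of 0.22 in DREAM +/- against wild type did not pass (limma adjusted p = 0.126). Tbx15, Tbx18 and Tbx19, all dim, changed by 0.03, 0.02 and 0.04 in the averaged R6/2 effect.

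Tbx3, a repressor of limb and heart development, gave 5.27, 5.36, 5.36 and 5.34 in R6/2 x DREAM +/-, 5.32, 5.25, 5.27 and 5.32 in R6/2, 5.09, 5.19, 5.16 and 5.34 in DREAM +/-, and 5.14, 5.13, 5.10 and 5.24 in wild type. The R6/2 arrays lay above wild type, and those of R6/2 x DREAM +/- overlapped DREAM +/- by 1 array. The averaged R6/2 effect was 0.14 (limma adjusted p = 0.0137). Counting the probe set used, 4 of the 5 had the same sign. The others changed by -0.03 to 0.08 (smallest limma adjusted p = 0.503). With the median over probe sets Tbx3 was not called (limma adjusted p = 0.4).

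The calls fell into those that held and those that did not. Nkx2-2, Lhx2 and Irx5 in R6/2 against wild type held in every alternative run that tested them. So did Irx5 and Lhx8 in R6/2 x DREAM +/- against DREAM +/-, and Nkx2-2 in R6/2 x DREAM +/- against R6/2. The dim Irx5 was not tested with the brightness filter. Nkx2-2, Lhx2, Irx5 and Lhx8 have 1 probe set each, so the median over probe sets could not change their values. Without R6/2 replicate 1 and R6/2 x DREAM +/- replicate 3 together, Hoxb7, Lhx3, Six4 and Tbx1 were not called in R6/2 against wild type (limma adjusted p = 0.0792, 0.110, 0.0583 and 0.0754), nor Hoxc6 and Irx6 in R6/2 x DREAM +/- against R6/2 (limma adjusted p = 0.0999 and 0.0551). The averaged R6/2 effects of Hoxa5, Hoxb7 and Lhx3 were not called there either (limma adjusted p = 0.104, 0.0545 and 0.119). Shifting the arrays to 1 median lost Hoxb7, Lhx3 and Tbx1 in R6/2 against wild type. Taking the median over a gene's probe sets lost Hoxd8, Lhx3 and Six4 in the same comparison. Tbx1 was not called in that run either. It has 1 probe set, so its own values were unchanged and its adjusted p moved with the other genes.

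DREAM +/- was set against wild type to read reduced DREAM on its own. In DREAM +/- against wild type 0 of the 95 passed (limma), beside 2.48% of all genes and 0.926% of dim ones, and 9 (9.47%) had an unadjusted p under 0.05, beside 15.1% of all genes. The median difference was -0.01, against -0.02 over all genes.

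On the R6/2 background, R6/2 x DREAM +/- against R6/2 gave 3 calls, all lower: Nkx2-2, Irx6 and Hoxc6. Of the 67 dim genes 1 was called, beside 1.97% of all dim genes. Of the 95 differences 25 (26.3%) were positive, beside 38.1% of all genes and 33% of dim ones, with a median of -0.06, against -0.03 over all genes. The comparison shares its R6/2 arrays with R6/2 against wild type, so a high R6/2 group moves both. Of the genes that rose in R6/2 against wild type, Nkx2-2 changed by -0.46, Irx5 by -0.13, Hoxd8 by -0.08, Hoxc10 by -0.12, Hoxb7 by -0.03, Lhx3 by -0.13, Six4 by -0.21 and Tbx1 by -0.02 here. The test of the interaction itself called 0 of the 95 genes and 0.0% of all genes (limma), with 11 of the 95 and 6.65% of all genes at an unadjusted p under 0.05. With arrays shifted to a common median of dim probe sets, 1 of the 95 was called in R6/2 x DREAM +/- against R6/2, beside 7.02% of all genes. The median of dim probe sets outside the gene set ran from 4.88 to 4.94 in R6/2 x DREAM +/-, 4.89 to 4.94 in R6/2, 4.88 to 4.91 in DREAM +/- and 4.87 to 4.89 in wild type.

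**Figure D4:**
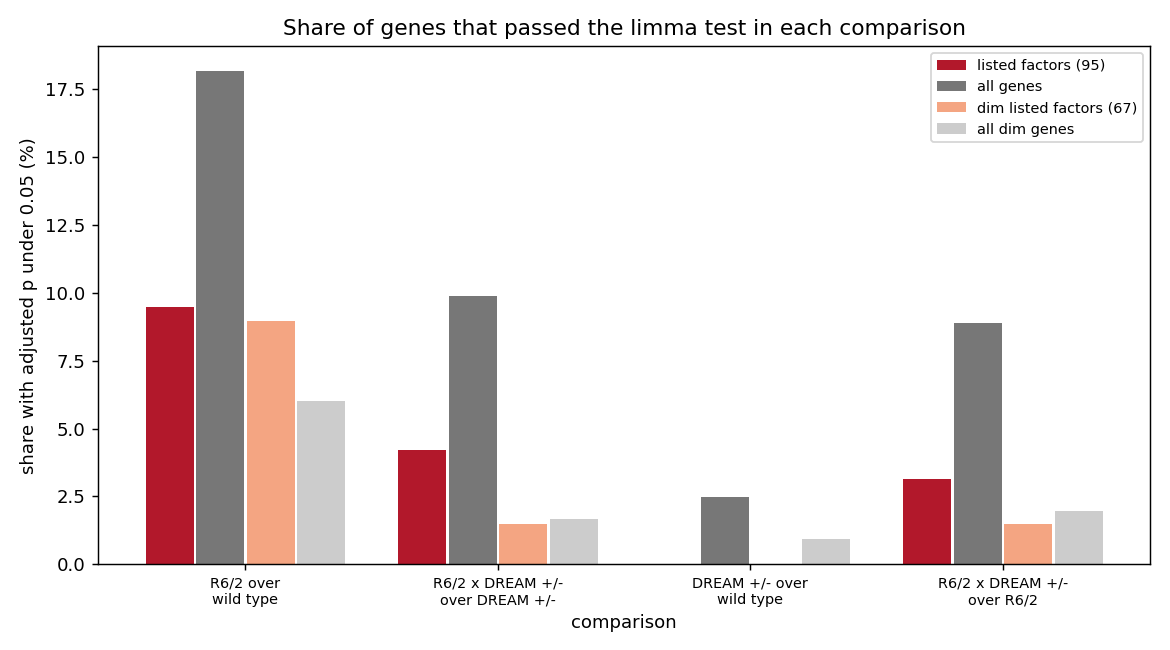
Share of genes with a limma adjusted p under 0.05 (vertical axis, %) in the 4 pairwise comparisons, for the 95 genes, all genes, the 67 dim genes of the set and all dim genes. In R6/2 over wild type 9 of the 95 passed beside 18.2% of all genes, and 6 of the 67 dim ones beside 6.0% of all dim genes.

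Cofactors and other forebrain developmental factors were read beside them from a list of 36, of which 34 were measured. In R6/2 against wild type 3 rose and 6 fell (18.2% of all genes called), and in R6/2 x DREAM +/- against DREAM +/- 1 rose and 3 fell (9.89%). In DREAM +/- against wild type 0 passed (2.48%), and in R6/2 x DREAM +/- against R6/2 1 rose and 3 fell (8.87%). The averaged R6/2 effect was called higher for 6 and lower for 7 (25.8%), and the averaged DREAM +/- effect higher for 1 and lower for 8 (15.0%). The genes named next were picked by the smallest p in the averaged effects. Lmo2, a LIM-only adaptor that joins Ldb1 and Gata factors, fell in the averaged R6/2 effect (change -0.68, limma adjusted p = 5.16e-09). Zfpm1, the Gata cofactor FOG-1, fell too (change -0.44, limma adjusted p = 0.000342). Dach2, a partner of sine oculis and Eya proteins, rose by 0.27 (limma adjusted p = 0.000251), and Eya2, a coactivator of sine oculis factors, fell in the averaged DREAM +/- effect (change -0.40, limma adjusted p = 0.000275).

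Polycomb and trithorax genes, whose products silence or keep open the Hox clusters, were read from a list of 34, of which 33 were measured. In R6/2 against wild type 3 rose and 1 fell (18.2% of all genes called), and in R6/2 x DREAM +/- against DREAM +/- 4 rose and 0 fell (9.89%). In DREAM +/- against wild type 0 rose and 2 fell (2.48%), and in R6/2 x DREAM +/- against R6/2 1 rose and 2 fell (8.87%). The averaged R6/2 effect was called higher for 9 and lower for 1 (25.8%), and the averaged DREAM +/- effect higher for 3 and lower for 6 (15.0%). Here too the genes named were picked by the smallest p in the averaged effects. Sfmbt2, a Polycomb-group protein, rose by 1.17 in the averaged R6/2 effect (limma adjusted p = 6.92e-08), and Bmi1, a core subunit of Polycomb complex PRC1, by 0.37 (limma adjusted p = 0.000183). Phf1, a Polycomb-like partner of PRC2, rose by 0.29 in the averaged R6/2 effect (limma adjusted p = 0.000131) and fell in the averaged DREAM +/- effect (change -0.39, limma adjusted p = 2.38e-05). Pcgf5, a PRC1 subunit, rose by 0.56 in R6/2 x DREAM +/- against R6/2 (limma adjusted p = 0.000818).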

How the data were processed

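Whole-striatum RNA of 16 samples was measured on 1-colour Affymetrix arrays. The authors deposited 1 table of log2 values for 45101 probe sets (3.34 to 14.71); RMA and affy are named in the submitters' processing notes, without versions or roles. RMA equalises the arrays' distributions, so a shift shared by most genes would be lost. Of the probe sets, 34945 had 1 gene symbol in the platform annotation, 932 several, 9160 none, and 64 were controls. Of those with several symbols, 3 carried a symbol of the families described here and were not used. Each of 18193 genes was read by its brightest probe set on average, without a brightness filter.

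Groups and replicate numbers came from the sample titles, which the series describes as biological replicates. A limma 3.58.1 model in R 4.3.3 with 1 mean per genotype (eBayes) was fitted to all genes and gave 4 pairwise contrasts, their interaction and the 2 averaged effects. P-values were adjusted by Benjamini-Hochberg over all genes per contrast, with 0.05 as the threshold. The script was tested on simulated data. For arrays, their number limits the precision: the median SE of a pairwise difference over the 95 genes was 0.073. Genes named are those called in any contrast, those over the brightness threshold, up to 2 dim genes per family with the smallest p in an averaged contrast, and a short fixed list. The members, lists and named genes were chosen with earlier results of these data known. Alternatives covered the brightness filter, quantile normalization, array shifts, the limma prior, array weights, a replicate block, the choice of probe set, the groups fitted and arrays left out.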

Additional observations from a re-analysis of the deposited data

Results flagged for a closer look

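For 15 genes called in any contrast, each genotype's 4 arrays were checked for 1 array far from the rest, by the gap to its nearest neighbour over the group's range and Dixon's 95% critical value. Chance alone gives this in about 1 of 20 groups, and 3 of the 60 groups met it. Irx5 in wild type replicate 4 stood at 4.33, against 4.69 to 4.70 on the other 3 arrays (0.973 of the range). Lhx3 in R6/2 x DREAM +/- replicate 1 stood at 5.65, against 5.70 to 5.71 on the others (0.833 of the range). Pax9 in R6/2 replicate 2 stood at 6.09, against 6.38 to 6.43 on the others (0.853 of the range).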

How the results depend on the processing

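The 95 genes gave 27 calls over the 7 contrasts, and 11 of them held in every alternative run that tested them. These were Nkx2-2 in 4 contrasts, Irx5 in 3, Lhx2 in 2 and Lhx8 in 2. The dim Irx5 was not tested with the brightness filter. Each of these genes has 1 probe set, so the median over probe sets could not change its values. Of 678 alternative values of the calls, 132 lost the call and 0 changed sign. The cause was not tested. In R6/2 x DREAM +/- against R6/2 the count was 1 with arrays shifted to a common median of dim probe sets (7.02% of all genes), against 3 (8.87%). For the averaged R6/2 effect it was 5 with the brightness filter, in which dim genes are not tested (35.4% of the genes left), and 6 with the median over probe sets (22.0%), against 10 (25.8%). For the averaged DREAM +/- effect, with 1 call (15.0% of all genes), it was 2 with the brightness filter (22.1%), 3 with quantile normalization (15.0%), 3 with array weights (18.5%), 3 with the median over probe sets (13.7%) and 2 without R6/2 replicate 1 and R6/2 x DREAM +/- replicate 3 together (18.0%). Leaving out each array in turn gave 6 to 16 calls in R6/2 against wild type (16 without R6/2 replicate 2, beside 15.4% of all genes), 2 to 5 in R6/2 x DREAM +/- against DREAM +/- (2 without DREAM +/- replicate 1, beside 7.14%) and 1 to 3 in R6/2 x DREAM +/- against R6/2 (1 without R6/2 x DREAM +/- replicate 2 or R6/2 replicate 1, 3 or 4, beside 4.85% to 6.31%). It gave 6 to 16 for the averaged R6/2 effect (6 without R6/2 replicate 1 or 4, beside 23.9% and 23.8%, and 16 without R6/2 replicate 2, beside 24.1%). It gave 1 to 4 for the averaged DREAM +/- effect (4 without R6/2 x DREAM +/- replicate 4 or wild type replicate 3, beside 12.2% and 17.4%). The count there was 2 without R6/2 x DREAM +/- replicate 2 or 3, DREAM +/- replicate 2, R6/2 replicate 3 or wild type replicate 2 or 4. Beside these counts of 2 stood 11.3% to 19.6% of all genes. Leaving out single arrays gave 0 in every run for DREAM +/- against wild type and for the interaction. Over 24 pairs of arrays with the same replicate number the correlation of deviations ran from -0.413 to 0.287, with a median of 0.066 and 11 over 0.1. Over the other 72 pairs the median was -0.013 and 16 were over 0.1. Pairs of the same number thus had the higher median. These correlations are not a test of pairing and cannot decide it. The main fit did not use the replicate number. With the replicate number as a block the counts were 10 in R6/2 against wild type (18.7% of all genes) and 4 in R6/2 x DREAM +/- against DREAM +/- (9.98%). They were 0 in DREAM +/- against wild type (2.47%) and 3 in R6/2 x DREAM +/- against R6/2 (8.59%). The block run gave 0 for the interaction (0.0%), 12 for the averaged R6/2 effect (26.4%) and 2 for the averaged DREAM +/- effect (14.8%). Array shifts moved an array by at most 0.07. With 4 arrays a group, and 67 of the 95 genes dim, small true changes in dim genes could go uncalled.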
